A study of Mus musculus with 6 samples.

Results

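A set of genes of the cardiac extracellular matrix, 10 of the 36558 genes in the deposited gene table, were taken by symbol: fibronectin (Fn1), tenascin C (Tnc), periostin (Postn), thrombospondins 1 and 4 (Thbs1, Thbs4), Sparc, Timp1, lysyl oxidase (Lox), fibrillin 1 (Fbn1) and versican (Vcan). All 10 were found and tested, and 486 of the 265079 deposited splicing events belong to them. The samples are untreated mouse heart, 3 labelled control (Srsf3Fl/Fl, in which both Srsf3 alleles are floxed) and 3 cKO (Srsf3Fl/Fl-βMHC-Cre). Both groups carry the floxed alleles; the cKO hearts also carry Cre recombinase under the Myh7 promoter, which acts in cardiomyocytes from before birth, so the other cell types of the heart are not its targets. The labels give no age or sex. SRSF3 belongs to the SR proteins, which bind RNA and guide the choice of splice sites.

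Fibronectin forms the fibrils on which other matrix is laid down, and fibrillin builds the microfibrils that carry elastin. Tenascin C, periostin, the thrombospondins and SPARC are matricellular proteins: they are secreted, sit in the matrix and act on cell adhesion and growth factor signals rather than as its scaffold. Lysyl oxidase crosslinks collagen and elastin, TIMP1 inhibits matrix metalloproteinases, and versican is a large proteoglycan that binds hyaluronan. In the heart these genes are made largely by fibroblasts and other stromal cells. Tnc, which is abundant in the embryo and scarce in the adult heart muscle, is known to return at sites of injury. Fn1 and Tnc are also classical alternatively spliced genes, in which whole exons, each coding for 1 fibronectin type III repeat, are kept or skipped without a change of reading frame.

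A pair of exons of Fn1 and a run of 6 exons of Tnc were of this kind in these hearts. The sequences of 5 of these exons are shown as a description. Alternative exon 1 of Tnc, counted from the 5′ end, was the called event. Exons 2 and 5 of Tnc and the EIIIB and EIIIA exons of Fn1 were not called. Tnc exons 3, 4 and 6, also not called, are not printed. Whether the sequence of an exon bears on its inclusion in these hearts was not tested. The sequences were read from GENCODE M21 transcripts on GRCm38 and are given 5′ to 3′ on the coding strand. Capitals mark pentamers of the type bound by SRSF3 in selection experiments in vitro (an A or T, a C, a pair of bases that are each A or T, and a C), searched on the coding strand alone with overlaps allowed.
Tnc alternative exon 1, chr4:64000698-64000967, minus strand: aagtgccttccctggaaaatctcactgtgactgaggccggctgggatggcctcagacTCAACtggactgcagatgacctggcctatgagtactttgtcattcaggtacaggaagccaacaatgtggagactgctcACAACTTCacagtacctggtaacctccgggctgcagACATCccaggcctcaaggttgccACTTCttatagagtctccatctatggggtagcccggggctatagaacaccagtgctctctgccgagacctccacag
Tnc alternative exon 2, chr4:63999913-64000185, minus strand: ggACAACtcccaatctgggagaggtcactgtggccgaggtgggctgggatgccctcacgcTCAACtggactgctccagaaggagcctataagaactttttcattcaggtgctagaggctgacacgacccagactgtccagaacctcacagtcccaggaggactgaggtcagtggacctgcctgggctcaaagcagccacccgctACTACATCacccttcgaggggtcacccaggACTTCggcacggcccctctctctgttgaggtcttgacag
Tnc alternative exon 5, chr4:63984460-63984732, minus strand: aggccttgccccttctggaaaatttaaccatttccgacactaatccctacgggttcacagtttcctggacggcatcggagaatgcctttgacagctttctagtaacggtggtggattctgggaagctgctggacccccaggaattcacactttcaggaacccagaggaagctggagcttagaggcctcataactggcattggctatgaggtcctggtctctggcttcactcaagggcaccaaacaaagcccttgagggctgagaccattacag
Fn1 EIIIB exon, chr1:71613763-71614035, minus strand: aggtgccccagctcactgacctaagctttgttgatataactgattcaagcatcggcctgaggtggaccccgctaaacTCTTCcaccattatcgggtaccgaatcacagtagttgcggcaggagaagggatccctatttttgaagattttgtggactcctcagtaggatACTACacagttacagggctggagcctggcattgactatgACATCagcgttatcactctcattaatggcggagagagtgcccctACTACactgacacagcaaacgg
Fn1 EIIIA exon, chr1:71603660-71603929, minus strand: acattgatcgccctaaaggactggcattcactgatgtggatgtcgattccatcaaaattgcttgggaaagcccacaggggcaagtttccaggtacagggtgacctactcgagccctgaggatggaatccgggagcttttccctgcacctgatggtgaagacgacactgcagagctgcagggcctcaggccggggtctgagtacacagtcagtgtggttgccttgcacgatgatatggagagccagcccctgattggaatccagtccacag
The 6 Tnc exons held 5, 5, 5, 3, 0 and 2 such pentamers in order, the EIIIB exon 4 and the EIIIA exon 0. Of 3387 annotated coding internal exons of 250 to 290 nt, 89.5% held at least 1, with a median of 2 and quartiles of 1 and 4. A match in these letters is a description and not a binding site. Tnc exons 1 and 3 were the most alike of the 15 pairs of Tnc exons, with 79.9% of aligned positions identical, against a median of 50%.

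Tnc and Thbs1 mRNA rose in cKO hearts, and the other 8 genes did not pass the test. Tnc was 1.65-fold higher and Thbs1 1.48-fold higher. Among all 15929 tested genes, 7.09% passed at an adjusted p under 0.05 and 3.78% passed as higher in cKO, beside 2 of 10 here. The deposited values are the authors' comparison of the groups by DESeq2, with 1 fold change and standard error (SE) per gene, and no values per heart were used here. Whether single hearts of the 2 groups overlap can therefore not be said. Across the members the median log2 fold change was 0.19, against -0.0038 over all tested genes, and 7 of 10 values were positive, against 49.2% of all tested genes.

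Which group is the reference of the fold changes is not named in the gene table, so the direction was settled from the splicing table. An exon that is nearly always included is listed nearer to 100% when it is covered by more reads, and its distance from 100% was used to rank a gene's coverage between the groups. Among 629 called genes with at least 3 exons of this kind, 596 (94.8%) had a fold change of the sign of that coverage difference, relative to the median gene. For the median gene itself, coverage read this way was 0.39 higher in cKO on the log2 scale. The values that follow are relative to it. Coverage read this way was higher in cKO for Tnc, by 0.95 on the log2 scale over 18 exons, and for Thbs1, by 0.50 over 20 exons. For Fn1 it was 0.44 over 42 exons, for Lox 0.41 over 3, for Thbs4 0.25 over 20, and for the other 5 genes it lay between -0.0025 and 0.15. These are the same libraries as in the gene table, read in another way.

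**Figure D1:**
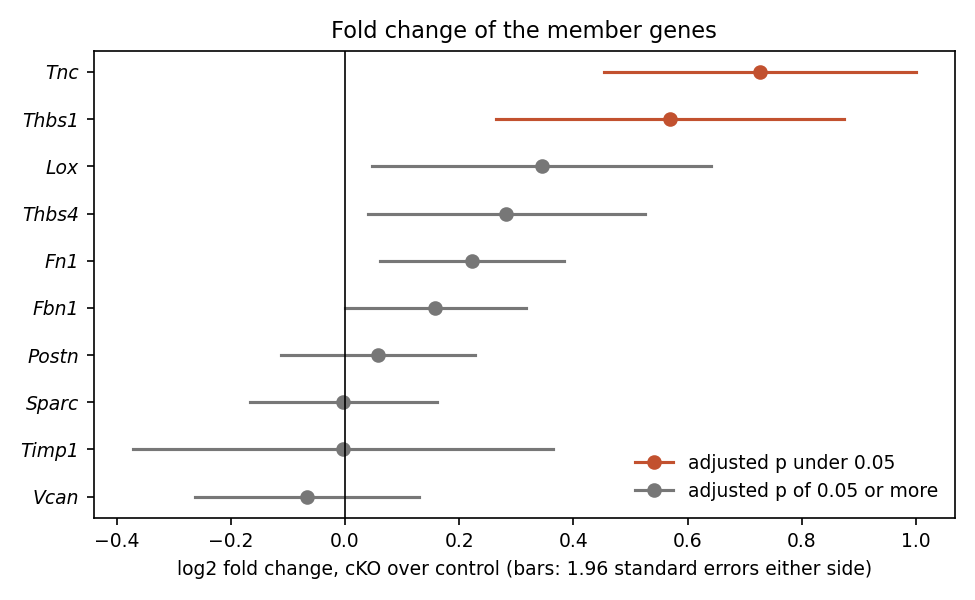
Log2 fold change of each of the 10 genes, cKO over control, on the horizontal axis. Values are from the authors' DESeq2 comparison of 3 against 3 heart samples. Points are the fold changes and bars the 95% intervals from their standard errors. The intervals of Tnc and Thbs1 (red, adjusted p under 0.05) lie farthest to the right, and those of Lox, Thbs4 and Fn1 also lie above 0 without passing the adjusted threshold.

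Tnc (ENSMUSG00000028364), on mouse chromosome 4 (GRCm38 63959785 to 64047015, minus strand), had the largest fold change of the 10. Its log2 fold change was 0.73 (SE 0.14, 95% interval 0.45 to 1.00), and DESeq2 gave it an adjusted p of 2.35e-05 (Wald test, 3 samples per group, the authors' deposited table). This value was exceeded by 3.06% of all tested genes. Thbs1 (ENSMUSG00000040152, chromosome 2, GRCm38 118111876 to 118127133, plus strand) codes for a thrombospondin that activates latent TGF-β and binds CD36 and CD47. It stood at 0.57 (SE 0.16, interval 0.26 to 0.87, adjusted p = 0.00819 by DESeq2) in the authors' deposited table. The authors' list from kallisto with sleuth holds Tnc and not Thbs1. Their list from featureCounts holds neither.

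Other members, namely Fn1, Lox and Thbs4, had intervals above 0 and missed the adjusted threshold. Fn1 (ENSMUSG00000026193, chromosome 1, GRCm38 71585520 to 71653200, minus strand) had a log2 fold change of 0.22 (SE 0.08, interval 0.06 to 0.38, adjusted p = 0.0781 by DESeq2) in the authors' deposited table. Lox was at 0.34 (SE 0.15, adjusted p = 0.166 by DESeq2) and Thbs4, the thrombospondin of muscle and tendon, at 0.28 (SE 0.12, adjusted p = 0.164 by DESeq2) in the authors' deposited table. With Tnc and Thbs1, 5 of 10 members had an unadjusted p under 0.05, all 5 higher in cKO, and the same was true of 19.2% of all tested genes in either direction and of 9.95% as higher. Fbn1 was at 0.16, and its interval of -0.00073 to 0.32 touched 0 in the authors' deposited table (adjusted p = 0.264 by DESeq2).

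The remaining members lay near 0. Sparc, whose product binds collagen, had a log2 fold change of -0.0029 (SE 0.08) in the authors' deposited table, and the interval allowed a fold between 0.891 and 1.12. Postn stood at 0.06 (SE 0.09), with an interval of 0.925-fold to 1.17-fold, and Vcan at -0.07 (SE 0.10), with 0.834-fold to 1.09-fold, in the authors' deposited table. Timp1 was measured less precisely, at -0.0038 (SE 0.19) in the authors' deposited table, so that a fold anywhere from 0.773 to 1.29 was compatible with the data.

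**Figure D2:**
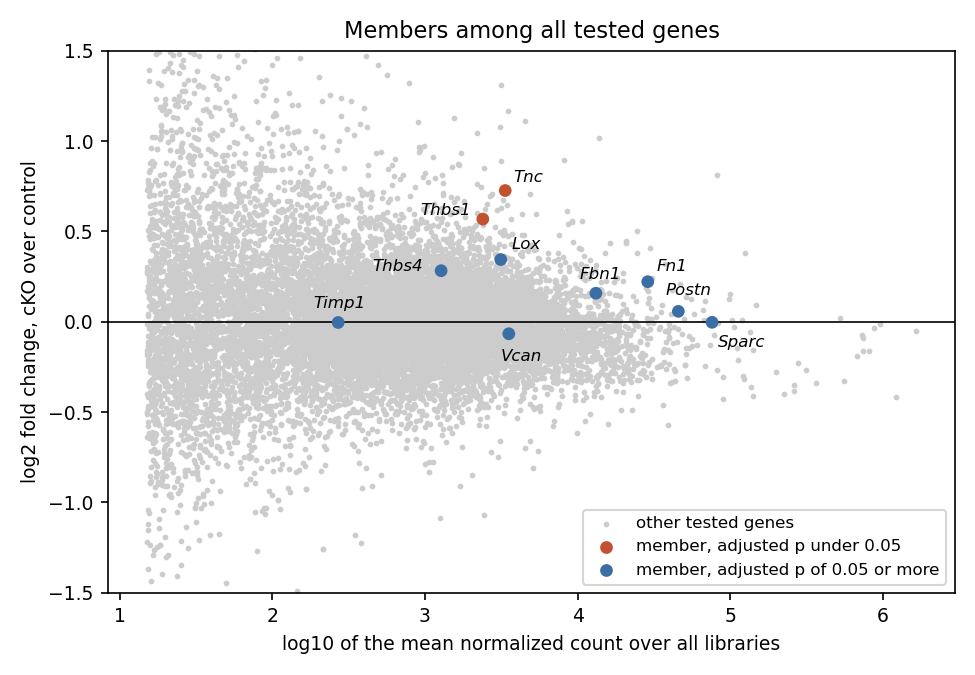
Log2 fold change (vertical axis) against the log10 of the mean normalized count over all libraries (horizontal axis) for 15929 tested genes, with the 10 members labelled. The vertical axis is limited to 1.5 either side of 0, which leaves out 114 genes. The fold changes of Tnc and Thbs1 (red) were exceeded by 3.06% and 4.76% of all tested genes. The most abundant members, Sparc and Postn, sit near the line of no change.

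The members spanned a wide range of abundance. The mean normalized count over all 6 libraries was highest for Sparc, 76072, and Postn, 45759, followed by Fn1 at 28840, and lowest for Timp1, 270.2, in the authors' deposited table. Divided by the length of the longest annotated coding transcript, the level per kilobase was 33075 for Sparc, 14277 for Postn, 3468 for Fn1 and 1102 for Fbn1, then 662 for Lox, 473 for Tnc, 410 for Thbs1, 399 for Thbs4, 306 for Timp1 and 285 for Vcan. The spread of these levels over hearts was not available, so neighbours in this order cannot be called different. Vcan's place rests on the choice of transcript: with the median coding transcript instead of the longest, its level per kilobase was 1543, and that of Sparc was 56983.

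Inclusion of the first alternative exon of Tnc passed the threshold for a change, at a higher level in cKO hearts. The inclusion level is the percentage of transcripts that hold an exon, and the deposited table gives 1 value per group with the replicates combined, so it has no error over hearts. Its measure of certainty is the minimum change, the size of difference that is exceeded with a probability of 0.95 in the authors' vast-tools comparison. An event was called when this was at least 10 points. The first alternative exon (mm9 chr4:63661732-63662001, 270 nt, exon 10 of its transcript) was included at 59.0% in control and 80.5% in cKO, a rise of 21.5 points with a minimum change of 11 points. It was the only called event among the 486 of the 10 genes. This share of 0.206% is near the 0.23% called among all deposited events, with 0.0792% called as higher in cKO. Of listed exons, 0.459% were called in the 10 genes and 0.294% in all genes. Among the 4883 exons of all genes with 10 to 90% inclusion in control hearts, 3.26% were called and 5.18% had a larger difference in either direction.

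The next 5 exons were all higher in cKO too, and none of them was called. Their differences in points became smaller towards the 3′ end of the region. This order holds for points alone, since the level in control limits the possible rise, at exon 6 to 10.3 points. Inclusion of the second exon was 57.9% in control and 77.1% in cKO, with a minimum change of 9 points. Exon 3 was at 71.8% and 82.7% (minimum change 2 points) and exon 4 at 80.0% and 87.4% (1 point). For the last pair the minimum change was 0: exon 5, the least used, was at 23.7% and 26.7%, and exon 6 at 89.7% and 92.5%. A minimum change above 0, as in the first 4 exons, was found in 23.8% of the 4883 exons of intermediate inclusion and in 2.22% of all events. Neighbouring exons of a run share the reads that span a skipped stretch, so these 6 values are not independent of each other.

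**Figure D3:**
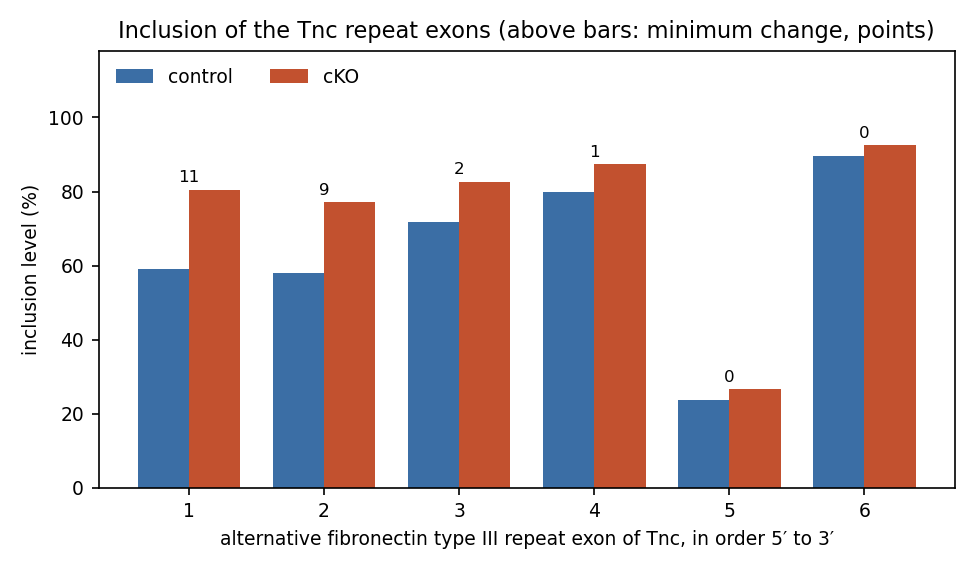
Inclusion level in percent (vertical axis, from 0) of the 6 alternative fibronectin type III repeat exons of Tnc in their order along the transcript (horizontal axis), in control (blue) and cKO (red) hearts, 1 value per group without an error bar. Numbers above the bars are the minimum change in points. The gap between the groups is widest at the first exon, 59.0% against 80.5%, and narrow at exons 5 and 6.

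Each of the 6 exons is 270 or 273 nt long, a whole number of codons, so inclusion adds 90 or 91 residues to the tenascin C chain. Added over the 6 exons, the inclusion levels come to a mean of 3.82 alternative repeats per Tnc transcript in control and 4.47 in cKO. In length these are 1041 and 1217 nt out of a possible 1635 nt. The sums have no error over hearts and were not tested, and only the first of the 6 exons was called. The other 18 listed exons of Tnc were included at 97.6% or more in control and 98.6% or more in cKO, and their largest difference was 2.04 points. Of 24 listed Tnc introns 0 were called, beside 0.134% of listed introns of all genes. Retention reached at most 6.16% in control and 2.48% in cKO. Coverage of Tnc was higher in cKO, and its part in these low values was not tested. The first exon is listed at 270 nt, 3 nt shorter at its 5′ end than the annotated exon of 273 nt.

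In Fn1 the listed alternative exons had nearly equal values in the 2 groups. The EIIIB exon (mm9 chr1:71660337-71660609, 273 nt, exon 25) was included at 50.005% in control and 50.8% in cKO. The EIIIA exon (mm9 chr1:71650234-71650503, 270 nt, exon 33), whose inclusion accompanies the activation of fibroblasts, was at 38.6% and 37.3%. For both exons the minimum change was 0, which does not show that the levels are equal. Another variable site of Fn1, the V region, arises from alternative 3′ splice sites within exon 40. The full form made up 88.9% in control and 86.7% in cKO, the form lacking 75 nt (25 codons) 9.48% and 10.4%, and the form lacking 360 nt (120 codons) 1.65% and 2.92%, all with a minimum change of 0. Whether the response of Tnc and that of Fn1 differ was not tested, since the deposited values have no replicates.

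Periostin is spliced in its carboxy-terminal region, and its exons 17 and 21 were the intermediate ones in these hearts. Exon 17 (mm9 chr3:54184334-54184414, 81 nt) was included at 38.1% in control and 39.9% in cKO, and exon 21 (mm9 chr3:54189593-54189676, 84 nt) at 28.1% and 27.8%. Exon 20 was included at 98.5% and 99.0%. In versican the large exon 8 of 5217 nt, which codes for the β glycosaminoglycan attachment domain, was included at 97.7% and 98.2%. The minimum change of each of these 4 exons was 0. Further listed exons that the annotation shows as alternative, numbered along the transcript, were exons 2, 3, 7 and 40 of Fn1, 5 of Tnc, 16 of Postn and 14 of Vcan. They were included at 98.95% or more in both groups. This exon 5 of Tnc, of 157 nt, lies outside the run of repeat exons. Within that run, the annotated coding transcripts show only alternative exon 5 as alternative.

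Tandem 3′ splice sites that lie 3 nt apart were used in a mixed way in 3 members. For Timp1 the site giving the shorter exon took 54.4% in control and 61.4% in cKO. Thbs1 used the site for the longer exon at 69.6% and 71.5%, and Sparc at 81.8% and 82.4%. The minimum change was 0 at each of these sites.

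**Figure D4:**
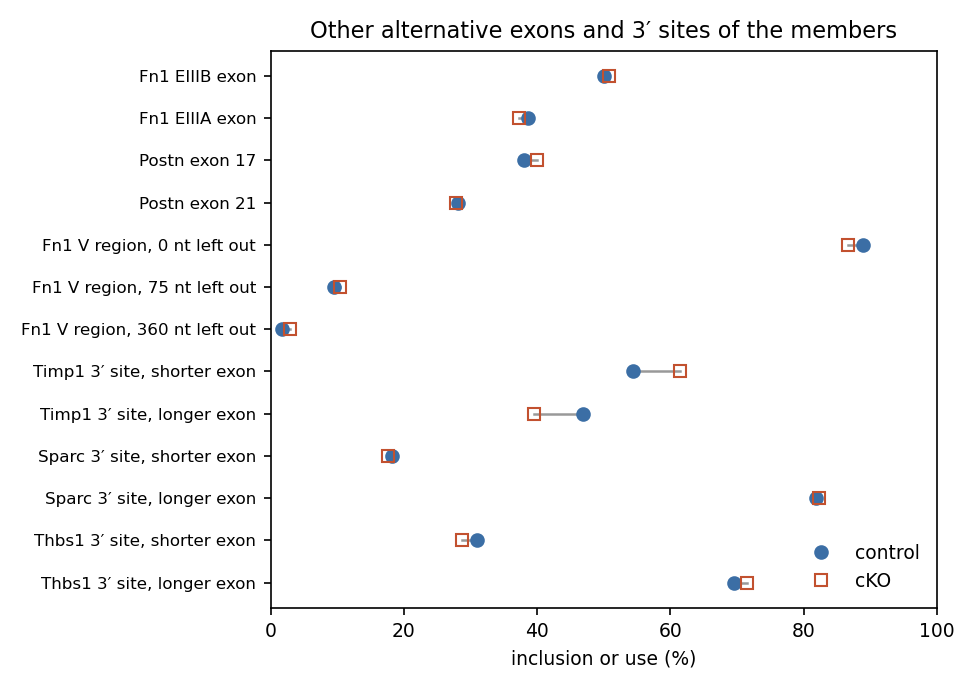
Inclusion or use in percent (horizontal axis) of the alternative exons of Fn1 and Postn, of 3 forms of the Fn1 V region and of the tandem 3′ splice sites of Timp1, Sparc and Thbs1, in control (filled circles) and cKO (open squares), 1 value per group. Paired symbols lie within 2.26 points of each other in all but Timp1, where they lie 6.996 and 7.33 points apart, and none of these events was called.

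None of the other exons and introns of the 10 genes was called. Exons of the members were included at a median of 99.7% in control and 99.8% in cKO. Of 218 listed exons, 145 (66.5%) had a length that is a multiple of 3, against 39.9% of 107748 listed exons of all genes. Fbn1, built of epidermal growth factor modules, had 59 such exons of 64, while Thbs4 had 6 of 20. Intron retention had a median of 0.747% in control and 0.537% in cKO over 217 introns of the members, against 2.19% and 1.85% over all listed introns. Listed values near 0 also move with read coverage, which was higher in cKO for the median gene. The part of coverage in these medians was not tested. The highest retention among members was in Fbn1, where an intron of 53799 nt stood at 23.0% and 19.6% and one of 26167 nt at 18.2% and 23.7%, both with a minimum change of 0. Some introns differed more between the groups, in both directions and also with a minimum change of 0. In Fbn1 an intron of 568 nt stood at 14.7% in control and 6.62% in cKO, one of 3822 nt at 3.08% and 9.52%, and one of 3007 nt at 4.33% and 10.3%. In Timp1 an intron of 978 nt stood at 9.24% and 3.26%.

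Related matrix genes were taken as lists, whose members were chosen with earlier results of these data known. Among 18 tested matricellular relatives, 3 rose and 0 fell, with a median log2 fold change of 0.17, beside 3.78% higher and 3.31% lower among all tested genes. These were osteopontin Spp1 at 3.82 (SE 0.36), the connective tissue growth factor Ccn2 at 0.90 (SE 0.17) and Smoc1, a calcium-binding relative of SPARC, at 0.54 (SE 0.15) in the authors' deposited table. Of 15 receptors for the members, 1 rose: Sdc4, the syndecan that binds fibronectin beside integrins in focal adhesions, at 0.52 (SE 0.12, adjusted p = 0.000946 by DESeq2) in the authors' deposited table. Of 24 tested metalloproteinase and inhibitor genes, 21 did not pass and the median was 0.04, beside 7.09% passing among all tested genes. The macrophage elastase Mmp12 rose by 1.04 (SE 0.28) on the log2 scale in the authors' deposited table. The membrane-bound matrix metalloproteinase Mmp15 fell by 0.32 (SE 0.10) in the authors' deposited table.

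Genes of elastic fibres and of matrix crosslinking did not pass. Among all tested genes 7.09% passed, and 19.2% had an unadjusted p under 0.05. Of 16 elastic fibre and microfibril genes 0 passed in the authors' DESeq2 test, with 2 at an unadjusted p under 0.05, 0 in the sleuth list and a median of 0.11. Elastin, Eln, stood at 0.0099 (SE 0.37), and the latent TGF-β binding protein Ltbp4 at -0.05 (SE 0.07) in the authors' deposited table. Of 13 crosslinking and collagen processing genes 0 passed by DESeq2, with 0 at an unadjusted p under 0.05, 0 in the sleuth list and a median of -0.0078. Tgm2, a transglutaminase, was at 0.27 (SE 0.15) and the collagen chaperone Serpinh1 at -0.07 (SE 0.09) in the authors' deposited table. Of 16 proteoglycan and hyaluronan genes, 1 rose, the scarce link protein Hapln4, at 3.45 (SE 0.80) with a mean of 20.9 normalized counts in the authors' deposited table. No splicing event was called among the 2543 listed for 85 genes of these 6 lists, beside 0.23% of all deposited events.

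Markers of the cells that make or surround this matrix were read in the same comparison, and their part in the results was not tested. Counts of 1 in 10 lie near the 7.09% called among all tested genes, and those of the macrophage and cardiomyocyte lists lie above it. The lists with 1 call in 10 differed at an unadjusted p under 0.05 by DESeq2. That held for 7 epicardial, 4 activated fibroblast, 3 mural, 1 fibroblast and 1 endothelial marker of 10 each, beside 19.2% of all tested genes. In bulk tissue fewer cells of a type and less RNA per cell cannot be told apart. Of 10 fibroblast markers 0 rose and 1 fell (Thy1, -0.46, SE 0.13), with a median of 0.01 in the authors' deposited table. Activated fibroblast markers had 1 of 10 higher, the matrix protein gene Cilp at 1.14 (SE 0.22), and a median of 0.20 with 9 values positive, in the authors' deposited table. Of 15 macrophage markers 7 rose, all 15 values were positive and the median was 0.57, with Lyz2 at 1.11, Csf1r at 0.53 and the galectin Lgals3 at 1.74 in the authors' deposited table. Epicardial markers had 1 of 10 higher (Lrrn4, 0.87, SE 0.27) and a median of 0.60, with all 10 values positive, in the authors' deposited table. No marker on any list had a mean of 0, and levels per group were not available.

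Cardiomyocyte markers were lower: of 10, 6 fell, all 10 values were negative and the median was -0.36, with Actc1 at -0.40, Myl2 at -0.38 and Myl3 at -0.41 in the authors' deposited table. Endothelial and mural markers had 1 of 10 higher each, beside 3.78% of all tested genes, Vwf at 0.25 (SE 0.09) and Tagln at 0.47 (SE 0.16), with medians of -0.06 and -0.07, in the authors' deposited table. Of 4 tested platelet markers 0 passed by DESeq2 and 0 had an unadjusted p under 0.05. The counts were 0 and 1 of 6 cartilage and valve markers, 0 and 1 of 6 monocyte and neutrophil markers, and 0 and 1 of 4 tendon markers. Among all tested genes 7.09% passed and 19.2% had an unadjusted p under 0.05. The sleuth list holds 0 of the markers of these lists. Their most abundant genes Pf4, Sox9, S100a9 and Fmod had log2 fold changes of -0.08, 0.18, -0.07 and 0.34, and the next in abundance, Itga2b, Acan, Cxcr2 and Scx, of 0.01, -0.44, -0.04 and -0.17, in the authors' deposited table. Srsf3 itself had a log2 fold change of 0.02 (SE 0.07) in the authors' deposited table, a sum over all its transcripts in all cell types that does not check the deletion. The authors' sleuth list holds Srsf3.

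**Figure D5:**
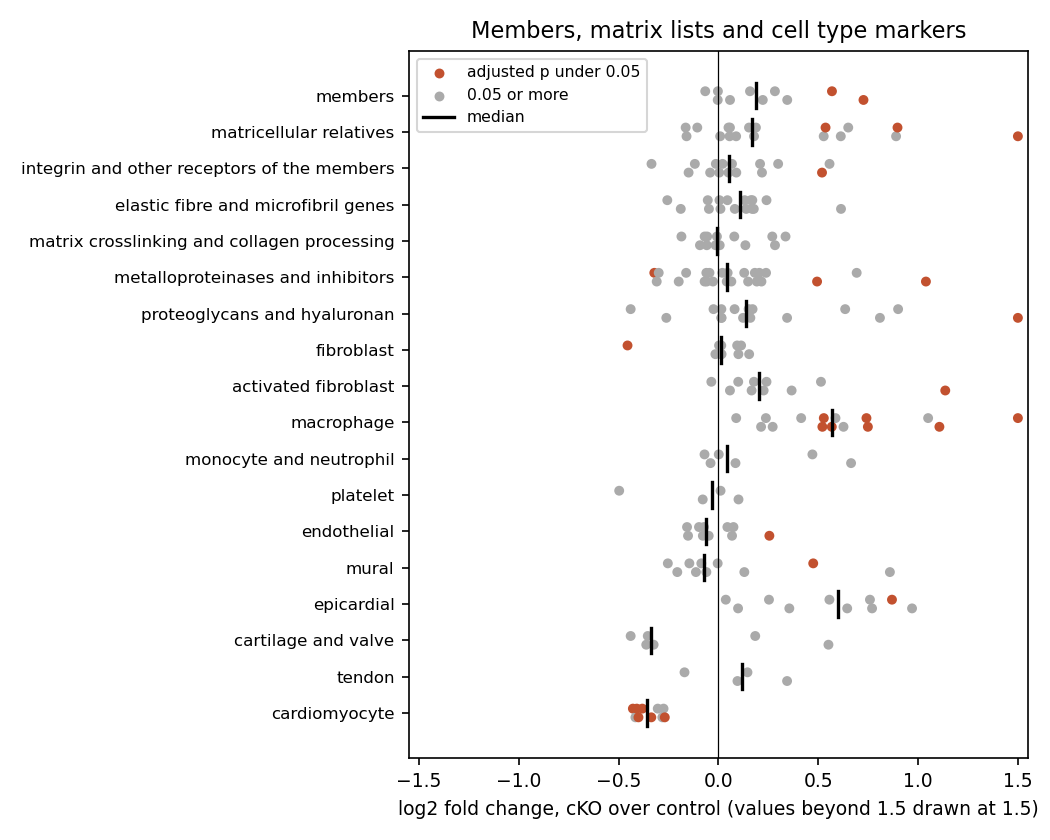
Log2 fold change, cKO over control (horizontal axis), of each tested gene of the 10 members, the 6 matrix lists and the 11 cell type marker lists. Points are genes, red at an adjusted p under 0.05, and black ticks are medians; Spp1, Hapln4 and Lgals3 lie beyond 1.5 and are drawn there. The macrophage and epicardial medians, 0.57 and 0.60, lie right of the members' median of 0.19, and the cardiomyocyte median of -0.36 lies left of 0.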

How the data were processed

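RNA was measured in 6 mouse heart samples, 3 control and 3 cKO. It was extracted with Trizol, and a stranded kit was used for the libraries, per the labels' protocols. Per the submitters' processing notes, the authors' tools were kallisto 0.46.0, DESeq2 1.24.0, Trimmomatic 0.38 and FastQC 0.10.1. The authors deposited, per the file headers, a mean normalized signal over all libraries, a log2 fold change, its standard error and Wald score, and a p-value with its adjusted value per gene. For splicing, the authors deposited inclusion levels as a fraction per group (vast-tools, mm9), and a difference and a minimum change as scores; fractions are printed as percentages. The list sheet's 0 or 1 marks and IDs are the authors' deposited calls by other pipelines.

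No values per heart were used and the depth of each sample is unknown, so the authors' tests are used as deposited, no library could be left out, and 0 columns were assigned to single samples. Replicate numbers follow accession order and pair nothing. Nothing in the labels says that samples of a group came from separate animals, so p-values measure only the spread between these samples, which may be technical. The deposited adjusted p equals Benjamini-Hochberg over 15929 genes, and the deposited score equals fold change over standard error. The adjustment step was tested on simulated data.

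IDs were given symbols from GENCODE M21 (35856 of 36558 matched). Intervals of 95% come from a normal approximation to the deposited standard error. Exons listed on mm9 were matched to GRCm38 exons by length and spacing, with 3 nt of tolerance at 1 boundary. Tools were Python 3.11.15, pandas 2.3.3 and Biopython 1.88. The members and lists were chosen with earlier results of these data known, and the pentamers after the events were seen. Named were all members, their called events, annotated alternative exons of Fn1, Tnc, Vcan and Postn, exons at 10 to 90% in control, and up to 3 genes per list by adjusted p, or the 2 most abundant where none passed, except 1 result of the metalloproteinase list that is not reported here; tandem sites, introns and Srsf3 were added after their values were seen. The alternatives tried were other adjustments, count filters of 10 and 100, centring, the authors' other lists, other event thresholds, other exons for the direction and another transcript length.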

Additional observations from a re-analysis of the deposited data

How the results depend on the processing

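Tnc and Thbs1 kept an adjusted p under 0.05 in each of the adjustments, count filters and centring tried, with an adjusted p of 2.03e-05 to 3.79e-05 for Tnc and of 0.00713 to 0.0130 for Thbs1, and no other member gained a call; that of Fn1 ranged from 0.0677 to 0.122. Of the members, 1 was in the authors' list from sleuth, of 517 genes, and 0 in that from featureCounts, of 171 genes. Thresholds of these lists are not given. By the DESeq2 fold change, 281 genes of the sleuth list were higher and 236 lower in cKO. For the featureCounts list the numbers were 98 and 8, and its other entries had no fold change to read. Centred on the median gene, the values of Sparc and Timp1 turned from just below 0 to 0.00092 and 5.1e-05. At a minimum change of 5 points or more, 2 member events were called (1677 of all events), with any above 0, 4 (5885), and by a difference of at least 10 points alone, 3 (6522); all of the member events were Tnc exons with higher inclusion in cKO. When p was adjusted over genes with a mean count of 100 or more, the receptor list had 2 calls in place of 1, the proteoglycan list 0 in place of 1, the matricellular relatives 2 in place of 3 and the macrophage list 6 in place of 7; Spp1 and Lgals3, with means of 78.8 and 84.4, fall below that filter. The direction share was 94.4% with exons within 5 points of full inclusion, and 75.3% of 547 genes from introns.

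No paired analysis was possible because the deposited tables hold comparisons of groups, with no column for a single heart, and leaving out single hearts was not run for the same reason. Inclusion levels have no error over hearts, and the reads behind each event were not used here.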
